A study of Mus musculus with 32 samples.

Results

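AB1 is a mouse malignant mesothelioma line that grows in BALB/c mice, and the same line was placed at 2 sites: in the pleural cavity (intrapleural, IPL) and under the skin (subcutaneous, SC). All 16 AB1 libraries of the 32 in the series were used, 8 IPL and 8 SC, chosen by the site given in their labels. Each library came from the tumor of 1 untreated female mouse aged 8 to 10 weeks, taken 10 days after 500000 cells were injected in 200 µL (IPL) or 100 µL (SC) of phosphate-buffered saline. AB1 is 1 line and whole tumors were used, so cancer cells and host cells were measured together. The labels describe harvest with surrounding tissue, and the study's methods state that lung and adjacent tissue were taken away before RNA was made.

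The pleura is a serous cavity lined by mesothelial cells and bordered by the diaphragm, the intercostal muscles and pleural fat. The subcutaneous site lies in loose connective tissue under the skin and its thin sheet of muscle. By the study's histology, a capsule-like rim was seen around SC tumors only, and tumor growth reached into neighboring muscle and lung in the pleural model. T cells, natural killer (NK) cells and the interferon-gamma they release raise antigen presentation and chemokines in nearby cells, and fibroblasts and mesenchymal tumor cells lay down collagen matrix. In bulk tumors, fewer cells of a type and less RNA per cell cannot be told apart, which holds for every result here.

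Total counts ran from 17212485 to 20649645 reads in IPL libraries and from 15432258 to 19235665 in SC libraries, so 3 reads were worth 0.141 to 0.195 CPM (read counts scaled to library size and by edgeR's TMM factors). All 8 IPL libraries and SC mice 1 and 2 were run on lane 3, and SC mice 3 to 8 on lane 2, as the column names state. Site and lane were therefore largely confounded, and fold changes within lane 3 alone (8 against 2 mice) stand beside the pooled ones. Between the 2 lanes within SC tumors, 1 of 15194 genes was called. Only 2 SC mice stood on the lane 3 side of that comparison, so few genes could reach a call. The count therefore does not measure how far lane shifted the levels. Mouse IPL 2 stood apart on the second principal component (16.5% of the variance) with IPL 4. In IPL 2 the summed level of sarcomere genes was 1167 CPM, against 2136 to 9026 CPM in the other IPL mice and 1021 to 1957 CPM in SC mice. In IPL 4 the tenth of genes lowest in GC content lay a median of 1.29 log2 units below its group, where IPL 2 lay 0.418 below. Counts without this pair are given where they moved by over 1.5 times and by 3 genes or more, and they stand against 1688 risen (11.4%) and 2069 fallen (14%) of 14814 genes.

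Of 14645 genes with enough reads, 3374 (23%) differed between sites by edgeR's quasi-likelihood test with Benjamini-Hochberg adjustment at 0.05. In IPL tumors 1803 genes (12.3%) rose and 1571 (10.7%) fell, and these shares are the background for each list below. Log2 fold changes are IPL minus SC throughout, given with their standard error after ±, and medians in CPM name IPL first. The median over all tested genes was -0.00225, that of the risen genes 0.53 and that of the fallen genes -0.71. With lane as a covariate 386 genes (2.64%) were called, 107 (0.731%) higher and 279 (1.91%) lower, and within lane 3 alone 169 of 15993 (1.06%) were called, 10 (0.0625%) higher and 159 (0.994%) lower. With the summed sarcomere level of each mouse as a covariate, 921 (6.29%) were called, 415 (2.83%) higher and 506 (3.46%) lower. Without any test, 281 genes (1.92%) lay higher in every IPL mouse than in every SC mouse and 415 (2.83%) lay lower in every IPL mouse.

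**Figure D1:**
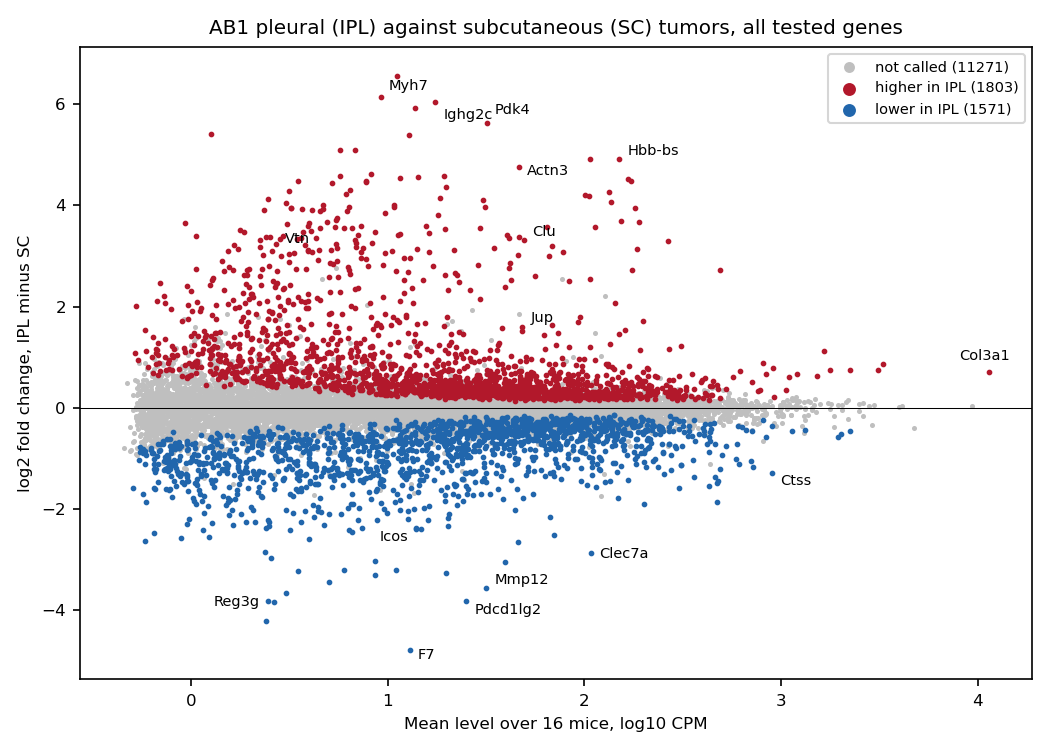
Log2 fold change (IPL minus SC, vertical) against the mean level of each of the 14645 tested genes (log10 CPM over 16 mice, horizontal), with risen and fallen genes colored. The 1803 risen and 1571 fallen genes lie around a median of -0.00225, which TMM scaling holds near 0.

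Described by function, the lists of skeletal muscle, antibody and fat genes had the highest medians in IPL tumors, followed at a distance by the fibrillar collagens. The lowest medians were those of the NK cell, mast cell and eosinophil, T cell, regulatory T cell, interferon-gamma and MHC class II lists. Lists of ribosome, DNA replication and mitosis genes had medians near 0. With lane as a covariate no list had more than 4 genes called higher, whereas the NK cell list had 20 called lower and the T cell list 13.

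**Figure D2:**
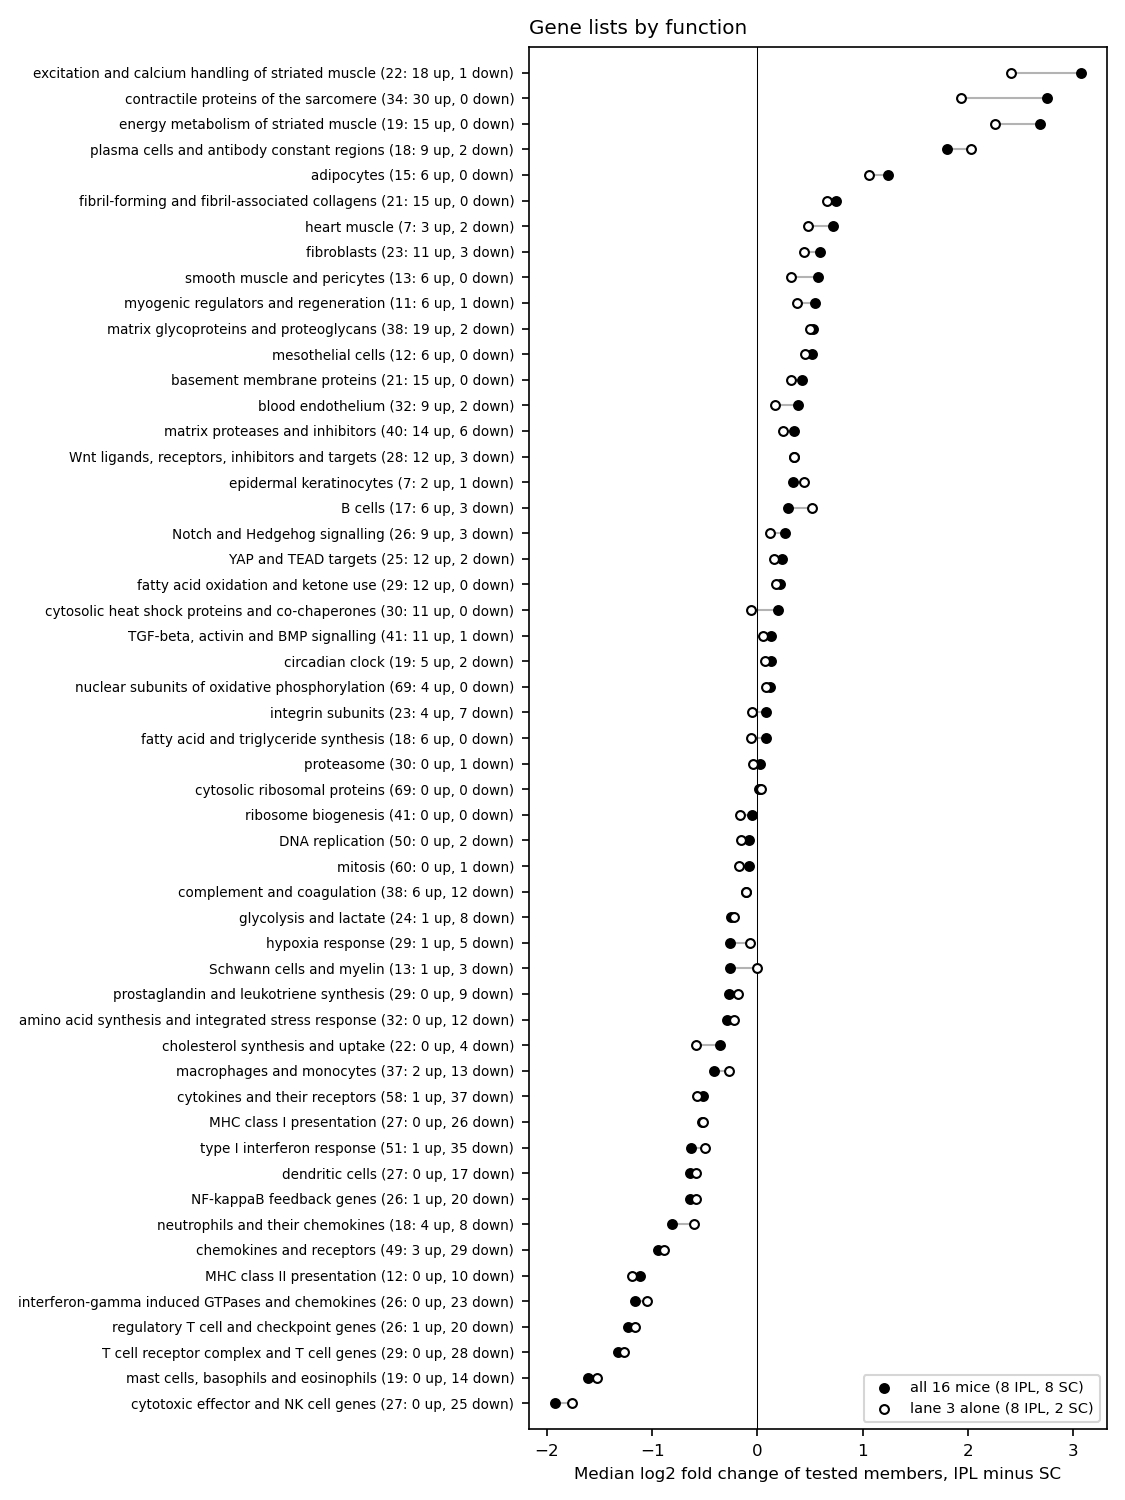
Median log2 fold change (IPL minus SC, horizontal) of the tested members of 53 gene lists (vertical), filled for all 16 mice and open for lane 3 alone. The list of excitation and calcium handling genes of muscle had a median of 3.07 and the cytotoxic and NK cell list one of -1.92, while ribosomal proteins lay at 0.02.

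Striated muscle genes were the most raised of the lists. Of 40 genes of the sarcomere, the contractile unit of striated muscle, 34 passed the filter on low counts. Of these 30 rose and 0 fell, with a median of 2.75 (lane 3 1.93). Acta1, skeletal muscle actin, was at 72.3 to 1760 CPM in IPL and 45 to 219 CPM in SC mice (medians 755 and 132, log2 fold change 2.73 ± 0.56, adjusted p = 0.0024, lane 3 2.01). Ckm, the muscle creatine kinase, was at 6.98 to 606 CPM in IPL and 0.356 to 22.8 CPM in SC mice (medians 212 and 14.9, log2 fold change 4.26 ± 0.84, adjusted p = 0.0018, lane 3 3.51). The groups overlapped for both, because IPL 2 held 72.3 CPM of Acta1 and 6.98 CPM of Ckm. Myh7, the slow myosin heavy chain, was at 0.649 to 65.6 CPM in IPL and 0.0605 to 0.489 CPM in SC mice (medians 13.3 and 0.257, log2 fold change 6.15 ± 1.03, adjusted p = 0.000534, lane 3 5.75), with no overlap, and without IPL 1, which held 65.6 CPM, its fold change was 5.48. Des, which encodes the muscle intermediate filament desmin, was at 22.7 to 867 CPM in IPL and 4.03 to 97.7 CPM in SC mice (medians 497 and 44.6, log2 fold change 3.29 ± 0.70, adjusted p = 0.00286, lane 3 2.47), and Tpm2, a tropomyosin, had medians of 246 and 82.3 CPM (1.54 ± 0.27, adjusted p = 0.000559, lane 3 1.21). Actn3, the actinin of fast fibers, was at 2.16 to 155 CPM in IPL and 0.415 to 7.82 CPM in SC mice (medians 91.3 and 3.06, log2 fold change 4.76 ± 0.70, adjusted p = 0.0002, lane 3 4.22).

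Genes of calcium handling and energy metabolism in muscle rose as well. Of 22 tested genes of excitation and calcium handling 18 rose, among them Scn4a, the muscle sodium channel, which was at 0.865 to 47.3 CPM in IPL and 0 to 1.86 CPM in SC mice (medians 19.2 and 0.873, log2 fold change 4.55 ± 0.73, adjusted p = 0.000346, lane 3 3.81). The 1 that fell was Chrne, the adult subunit of the acetylcholine receptor at the nerve ending, which was at 0.0541 to 0.78 CPM in IPL and 0.38 to 1.4 CPM in SC mice (medians 0.359 and 0.955, log2 fold change -1.20 ± 0.41, adjusted p = 0.0426, lane 3 -1.23). That call was lost without IPL 2 and IPL 4 (adjusted p = 0.0608) and without any 1 of 10 mice, IPL 2, 5, 6 and 8 and SC 2 and 4 to 8 (0.0546 to 0.089). Chrna1, the receptor's alpha subunit, was at 8.15 to 21.3 CPM in IPL and 2.53 to 5.5 CPM in SC mice (medians 13.3 and 4.33, log2 fold change 1.65 ± 0.21, adjusted p = 5.3e-05, lane 3 1.37). Of 19 tested genes of muscle energy metabolism 15 rose, with Fabp3, the fatty acid carrier of muscle, which was at 0.973 to 25.6 CPM in IPL and 0.186 to 0.782 CPM in SC mice (medians 7.54 and 0.454, log2 fold change 4.44 ± 0.67, adjusted p = 0.000189, lane 3 4.57), and Ckmt2, the mitochondrial creatine kinase, which had medians of 8.51 and 0.45 CPM (5.10 ± 0.94, adjusted p = 0.00104, lane 3 4.80). Among 11 tested myogenic regulators 6 rose and 1, Runx1, fell. Myog, which drives differentiation of muscle precursors, was at 0.162 to 14.1 CPM in IPL and 0 to 1.26 CPM in SC mice (medians 7.24 and 0.562, log2 fold change 3.48 ± 0.63, adjusted p = 0.000802, lane 3 2.74). Muscle atrophy genes split, with 5 risen of 12 tested and Mt2, a metallothionein, fallen (median 0.09, lane 3 0.14). Trim63, a ubiquitin ligase of muscle breakdown in that list, was at 0.595 to 61.4 CPM in IPL and 0.0593 to 3.07 CPM in SC mice (medians 22.9 and 1.02, log2 fold change 4.55 ± 0.74, adjusted p = 0.000439, lane 3 4.37). Pdk4, which limits entry of pyruvate into mitochondria, was at 3.84 to 165 CPM in IPL and 0 to 2.54 CPM in SC mice (medians 38.4 and 1.46, log2 fold change 5.63 ± 0.81, adjusted p = 0.000186, lane 3 5.21) and did not overlap between sites.

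With lane in the model, which leaves 2 SC mice beside the IPL mice of the same lane, these rises were no longer called. Of the sarcomere genes 0 stayed called by edgeR with lane as a covariate, where 11 had an unadjusted p under 0.05, and of the calcium handling genes only Chrna1 (adjusted p = 0.0453). Within SC tumors, the mice of lane 3 stood a median of 1.12 log2 units above those of lane 2 over the sarcomere list. With the sarcomere level as a covariate, 1 sarcomere gene was called higher and 1 lower. Of 7 tested heart muscle markers Myl4, Tnnt2 and Gata4 rose (42.9%, against 12.3% of all genes), whereas Tnni3 and Nppb fell (median 0.72, lane 3 0.48). The summed level of the heart list was 59.2 to 166 CPM in IPL and 36.2 to 56.1 CPM in SC mice, without overlap. Gata4 alone made up 75.9 of the 86.8 CPM in IPL 2. The mean log2 level of the list overlapped between sites (-0.824 to 1.02 in IPL and -0.871 to 0.267 in SC mice). Tnni3, cardiac troponin I, was at 1.51 to 3.85 CPM in IPL and 2.93 to 7.53 CPM in SC mice (medians 2.76 and 4.53, log2 fold change -0.88 ± 0.22, adjusted p = 0.00739, lane 3 -0.91), and the atrial peptide gene Nppa had at most 4 reads in any library. Myh6, the heart's alpha myosin, did not pass the filter and held up to 34.0 CPM in IPL and up to 0.361 CPM in SC mice.

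Promoters of 2 named muscle genes are shown because the muscle genes moved together. The windows, from 250 bases before to 50 after the RefSeq start (GRCm38.p6), are Des at chr1:75360042-75360341 on the forward strand and Tpm2 at chr4:43523505-43523804 on the reverse strand, and capitals mark CAGCTG, the E-box letters bound by MyoD-type factors.
Des: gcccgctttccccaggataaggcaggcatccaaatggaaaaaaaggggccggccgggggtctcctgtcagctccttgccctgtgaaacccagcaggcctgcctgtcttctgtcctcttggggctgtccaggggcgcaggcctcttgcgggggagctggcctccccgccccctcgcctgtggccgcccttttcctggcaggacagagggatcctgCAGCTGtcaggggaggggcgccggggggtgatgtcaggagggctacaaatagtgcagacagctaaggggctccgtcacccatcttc
Tpm2: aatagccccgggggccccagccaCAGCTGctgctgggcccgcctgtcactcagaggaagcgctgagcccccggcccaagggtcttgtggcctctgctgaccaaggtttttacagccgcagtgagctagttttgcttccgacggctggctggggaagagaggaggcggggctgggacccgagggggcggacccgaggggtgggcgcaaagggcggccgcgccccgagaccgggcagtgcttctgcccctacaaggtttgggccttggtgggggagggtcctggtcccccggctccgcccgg
CAGCTG, which reads the same on both strands, stood in 11 of 24 sarcomere promoters (45.8%) and 10 of 15 muscle energy promoters (66.7%), against 15.7% of the 9538 tested genes with a window. These letters also stood in 4 of 8 MHC class II (50.0%), 29.4% of fibrillar collagen and 9 of 36 type I interferon promoters (25%). The looser letters TANNNNTA, a MEF2-type site searched on both strands, stood in 15 of 24 sarcomere promoters (62.5%), in 3 of 15 muscle energy promoters (20.0%) and in 25.5% of all. They also stood in 47.2% of type I interferon, 46.7% of T cell and 50.0% of MHC class II promoters. A match is a description of the window, not a measured site.

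Adipocyte and mesothelial genes gave smaller and less even rises than muscle genes. Their source was not tested, and the AB1 line is itself of mesothelial origin. Of 15 tested adipocyte genes 6 rose and 0 fell (median 1.24, lane 3 1.06). Once lane was a covariate 0 were called by edgeR, where 0 had an unadjusted p under 0.05. Adipoq, the fat hormone adiponectin, was at 0.42 to 42.1 CPM in IPL and 0 to 3.2 CPM in SC mice (medians 5.2 and 1.04, log2 fold change 3.26 ± 0.95, adjusted p = 0.0198, lane 3 2.53), with 42.1 CPM in IPL 2, and without IPL 2 and IPL 4 its adjusted p was 0.0643. Car3, carbonic anhydrase 3 of fat and muscle, was at 9.19 to 288 CPM in IPL and 1.37 to 25.4 CPM in SC mice (medians 91 and 13.4, log2 fold change 2.99 ± 0.69, adjusted p = 0.0053, lane 3 2.28). Of 12 tested mesothelial genes 6 rose (median 0.51, lane 3 0.45). With lane as a covariate edgeR called 0 of them, where 4 had an unadjusted p under 0.05. Aldh1a2, which makes retinoic acid, was at 10.8 to 30.4 CPM in IPL and 4.49 to 10.4 CPM in SC mice (medians 18.2 and 8.13, log2 fold change 1.31 ± 0.24, adjusted p = 0.00081, lane 3 1.25) without overlap. Prg4, the lubricating proteoglycan 4, was at 6.61 to 51.5 CPM in IPL and 4.13 to 17.4 CPM in SC mice (medians 32.1 and 6.75, log2 fold change 1.78 ± 0.41, adjusted p = 0.00484, lane 3 2.45). Wt1, a mesothelial transcription factor, was at 0.164 to 11.1 CPM in IPL and 0.359 to 2.53 CPM in SC mice (medians 0.693 and 0.936, log2 fold change 0.56 ± 0.73, adjusted p = 0.607, lane 3 1.17). Its highest value came from IPL 2, without which the fold change was -1.06 (adjusted p = 0.0804). That mouse also held 590 reads of Upk3b, a mesothelial surface marker that reached at most 0.0598 CPM in SC mice. Calb2, calretinin, did not pass the filter and went the other way at few reads. It was at 0.157 to 0.484 CPM in IPL and 0.489 to 1.17 CPM in SC mice (at most 9 and 18 reads).

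Blood vessel genes split. Pecam1, on all endothelium, was at 44.6 to 75.8 CPM in IPL and 57.5 to 80.3 CPM in SC mice (medians 63.4 and 63, log2 fold change -0.11 ± 0.11, adjusted p = 0.48, lane 3 -0.26). Of 32 tested endothelial genes 9 rose and 2 fell, and leaving out single mice gave 4 to 13 risen genes, the lowest without IPL 4. Without IPL 2 and IPL 4 there were 3, and with lane as a covariate edgeR called 0 endothelial genes higher and 1 lower. Aplnr, the apelin receptor, was at 11.1 to 36.5 CPM in IPL and 4.92 to 12 CPM in SC mice (medians 19.2 and 8.86, log2 fold change 1.28 ± 0.24, adjusted p = 0.000903, lane 3 1.03). Flt1, a receptor for vascular endothelial growth factor, was at 17 to 30.2 CPM in IPL and 24.5 to 48.9 CPM in SC mice (medians 22.4 and 36.2, log2 fold change -0.65 ± 0.15, adjusted p = 0.0039, lane 3 -0.73). Flt4, its counterpart on lymphatic vessels, was at 3.14 to 7.52 CPM in IPL and 1.75 to 3.8 CPM in SC mice (medians 6.23 and 2.54, log2 fold change 1.10 ± 0.21, adjusted p = 0.00106, lane 3 0.66), and Ccl21a, a chemokine of lymphatic vessels and lymphoid tissue, had medians of 6.55 and 0.386 CPM (3.90 ± 0.86, adjusted p = 0.00339, lane 3 3.15). Lymphatic genes as a list went both ways, with 2 risen and 3 fallen of 10 tested.

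Lung, skin and nerve markers were close to absent. Nkx2-1 had at most 1 read and the surfactant gene Sftpb at most 4 in any library, and Scgb1a1, of airway cells, at most 22. Of 6 tested lung genes Hopx and Napsa fell and 0 rose. The epidermal keratin Krt5 had at most 11 reads and Krt14 at most 18. Of 7 tested keratinocyte genes Trp63 and Lgals7 rose and Cdh1 fell. Cdh1, E-cadherin, was at 6.25 to 16.2 CPM in IPL and 15.2 to 72.2 CPM in SC mice (medians 7.42 and 25.6, log2 fold change -1.84 ± 0.31, adjusted p = 0.000408, lane 3 -1.99). Of 13 tested Schwann cell genes Pmp22 rose and 3 fell. Of 4 neuron genes, 1 (Gap43) rose.

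Matrix genes rose in IPL tumors. Of 21 tested fibril-forming and fibril-associated collagens 15 rose and 0 fell, with a median of 0.75 (lane 3 0.66). Col14a1, a collagen on fibril surfaces, was at 49.3 to 109 CPM in IPL and 19.7 to 39.6 CPM in SC mice (medians 63.8 and 23.6, log2 fold change 1.51 ± 0.18, adjusted p = 2.64e-05, lane 3 1.78). Col3a1, a fibrillar collagen of soft tissue, was at 9540 to 25100 CPM in IPL and 7730 to 10500 CPM in SC mice (medians 13000 and 8390, log2 fold change 0.70 ± 0.16, adjusted p = 0.00475, lane 3 0.64). Col6a3, of the microfibrils around cells, was at 902 to 1540 CPM in IPL and 593 to 844 CPM in SC mice (medians 1120 and 655, log2 fold change 0.79 ± 0.10, adjusted p = 5.31e-05, lane 3 0.51). For Col14a1 and Col6a3 the groups did not overlap, and only Col14a1 of this list stayed called with lane as a covariate (adjusted p = 0.00456). Of 21 tested basement membrane genes 15 rose and 0 fell (median 0.42, lane 3 0.32; 1 with lane as a covariate). Lamc1, the laminin gamma 1 chain, was at 547 to 715 CPM in IPL and 406 to 511 CPM in SC mice (medians 583 and 461, log2 fold change 0.37 ± 0.06, adjusted p = 0.00063, lane 3 0.22), and Fras1, which anchors epithelial basement membranes, had medians of 60 and 39.1 CPM (0.55 ± 0.07, adjusted p = 6.33e-05, lane 3 0.46).

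Of 38 tested matrix glycoproteins and proteoglycans 19 rose, whereas Nov and Wisp2 fell (median 0.53, lane 3 0.50). Once lane was added 1 of these rises was called. Vtn, the adhesive plasma and matrix protein vitronectin, was at 2.3 to 12.7 CPM in IPL and 0.726 to 1.36 CPM in SC mice (medians 7.85 and 0.84, log2 fold change 3.13 ± 0.31, adjusted p = 9.01e-06, lane 3 3.10). Fn1, fibronectin, was at 2930 to 5770 CPM in IPL and 1900 to 3240 CPM in SC mice (medians 4120 and 2270, log2 fold change 0.86 ± 0.13, adjusted p = 0.00021, lane 3 0.77). Vtn was higher in every IPL mouse than in every SC mouse and kept its call with lane as a covariate (adjusted p = 0.00906). Bmper, a secreted binder of bone morphogenetic proteins, was at 4.96 to 26.1 CPM in IPL and 0.621 to 1.56 CPM in SC mice (medians 12.6 and 1.26, log2 fold change 3.42 ± 0.30, adjusted p = 3.88e-06, lane 3 3.41). Serpinh1, the chaperone of collagen folding, was at 1060 to 1690 CPM in IPL and 755 to 1080 CPM in SC mice (medians 1220 and 846, log2 fold change 0.61 ± 0.11, adjusted p = 0.000824, lane 3 0.35). Of 23 tested fibroblast genes 11 rose and 3 fell, and with lane as a covariate edgeR called 0 higher and 1 lower, where 11 had an unadjusted p under 0.05. Thy1, a surface marker of fibroblasts that T cells also carry in mice, was among the fallen and was at 22 to 58.6 CPM in IPL and 63.3 to 110 CPM in SC mice (medians 34.8 and 85.4, log2 fold change -1.22 ± 0.18, adjusted p = 0.000151, lane 3 -1.26).

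Matrix proteases moved both ways. Of 40 tested proteases and inhibitors 14 rose and 6 fell (median 0.35, lane 3 0.25). Adding lane left 0 of the rises and 5 of the falls called, and without SC mouse 5 only 7 rose. Mmp12, macrophage elastase, was at 1.51 to 11.5 CPM in IPL and 27.8 to 112 CPM in SC mice (medians 3.44 and 53.3, log2 fold change -3.56 ± 0.40, adjusted p = 2.07e-05, lane 3 -3.57). Mmp3, stromelysin 1, was at 2.08 to 39.8 CPM in IPL and 39.9 to 123 CPM in SC mice (medians 9.63 and 79, log2 fold change -2.64 ± 0.47, adjusted p = 0.000825, lane 3 -3.12). Timp3, a tissue inhibitor of metalloproteinases, was at 10.1 to 19.2 CPM in IPL and 20.9 to 39.1 CPM in SC mice (medians 17.8 and 29.1, log2 fold change -0.92 ± 0.15, adjusted p = 0.000307, lane 3 -1.31). None of these 3 overlapped between sites. Mmp11, stromelysin 3, was at 55.4 to 138 CPM in IPL and 40.7 to 61.9 CPM in SC mice (medians 85.7 and 43.7, log2 fold change 0.86 ± 0.17, adjusted p = 0.00121, lane 3 0.96), and Plat, tissue plasminogen activator, had medians of 116 and 74.1 CPM (0.72 ± 0.12, adjusted p = 0.000383, lane 3 0.60). Among 23 integrin subunits Itga11, Itgb4, Itgb5 and Itgb6 rose, and 7 fell, of which Itgax, the CD11c subunit of dendritic cells and macrophages, was at 20.2 to 34.1 CPM in IPL and 51.2 to 163 CPM in SC mice (medians 23.1 and 115, log2 fold change -2.15 ± 0.22, adjusted p = 9.01e-06, lane 3 -2.31). Jup, plakoglobin of cell junctions, was at 45.8 to 92.9 CPM in IPL and 18.1 to 32.4 CPM in SC mice (medians 74.1 and 23.8, log2 fold change 1.60 ± 0.14, adjusted p = 3.88e-06, lane 3 1.41), also without overlap.

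T cell genes were lower in IPL tumors with almost no exception. Of 34 listed genes 29 were tested, and 28 fell and 0 rose (median -1.32, lane 3 -1.27), against the background of 10.7% lower. Tcf7 was at -0.14. Each of 17 members lay lower in every IPL mouse than in every SC mouse, against 2.83% of all genes. Icos, a costimulatory receptor, was at 3.6 to 6.4 CPM in IPL and 18.2 to 30.9 CPM in SC mice (medians 4.5 and 25.4, log2 fold change -2.39 ± 0.15, adjusted p = 1.38e-07, lane 3 -2.47). Cd3e, of the T cell receptor complex, was at 1.51 to 10.6 CPM in IPL and 9.09 to 17.5 CPM in SC mice (medians 5.8 and 11.6, log2 fold change -1.06 ± 0.29, adjusted p = 0.0128, lane 3 -1.11). Trbc1, a constant region of the receptor's beta chain, was at 6.48 to 21.3 CPM in IPL and 29.8 to 66.9 CPM in SC mice (medians 13.3 and 42.1, log2 fold change -1.70 ± 0.22, adjusted p = 5.84e-05, lane 3 -1.69), and Txk, a T cell kinase, had medians of 2.56 and 9.32 CPM (-1.98 ± 0.22, adjusted p = 2e-05, lane 3 -1.89). Icos had the smallest adjusted p of all falls and kept it small with lane as a covariate (3.64e-05). Adding lane to the model left 13 of the list called lower, and adding the sarcomere level left 25.

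Regulatory T cell and checkpoint genes fell with them, 20 of 26 tested (median -1.23, lane 3 -1.16; 12 with lane as a covariate). Foxp3, the regulatory T cell factor, was at 3.34 to 6.76 CPM in IPL and 9.25 to 14.3 CPM in SC mice (medians 4.95 and 11.3, log2 fold change -1.21 ± 0.13, adjusted p = 1.34e-05, lane 3 -1.33). Ctla4, an inhibitory receptor, was at 2.73 to 6.17 CPM in IPL and 12 to 19.2 CPM in SC mice (medians 3.52 and 14.8, log2 fold change -2.0 ± 0.15, adjusted p = 9.5e-07, lane 3 -2.04), and Il2ra, the alpha chain of the interleukin-2 receptor, had medians of 5.32 and 21.5 CPM (-2.01 ± 0.16, adjusted p = 9.5e-07, lane 3 -2.01). Pdcd1lg2, the PD-L2 ligand of PD-1, was at 2.07 to 5.83 CPM in IPL and 20.3 to 72.4 CPM in SC mice (medians 2.79 and 45.1, log2 fold change -3.83 ± 0.30, adjusted p = 1.18e-06, lane 3 -3.82). The lowest SC mouse stood above the highest IPL mouse for all 4. The 1 risen member was Cd276, the B7-H3 ligand, which was at 64 to 112 CPM in IPL and 46.8 to 63.2 CPM in SC mice (medians 76.9 and 56, log2 fold change 0.56 ± 0.11, adjusted p = 0.00174, lane 3 0.39).

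Cytotoxic and NK cell genes had the lowest median of the lists, -1.92 (lane 3 -1.76), with 25 of 27 tested fallen and 0 risen. Of these 20 were called lower with lane as a covariate, and 18 did not overlap between sites. Ncr1, the activating NK receptor NKp46, was at 5.22 to 11.3 CPM in IPL and 16.9 to 47.1 CPM in SC mice (medians 7.19 and 35.2, log2 fold change -2.17 ± 0.21, adjusted p = 7.52e-06, lane 3 -2.03). Klrd1, the CD94 receptor chain, was at 3.24 to 8.89 CPM in IPL and 15.1 to 36.4 CPM in SC mice (medians 4.86 and 26.3, log2 fold change -2.23 ± 0.23, adjusted p = 9.58e-06, lane 3 -2.19). Fasl, a death ligand of killer cells, was at 1.04 to 2.46 CPM in IPL and 4.53 to 9.73 CPM in SC mice (medians 1.92 and 7.25, log2 fold change -1.96 ± 0.21, adjusted p = 1.32e-05, lane 3 -1.79), and Il12rb2, a chain of the interleukin-12 receptor, had medians of 1.29 and 4.44 CPM (-2.03 ± 0.26, adjusted p = 5.18e-05, lane 3 -2.01). The members of this list without a fall were Serpinb9b (0.62, adjusted p = 0.0522) and Serpinb6b (-0.22, adjusted p = 0.405), both protease inhibitors. Klr genes are a family of like sequences, so reads could have been shared among them.

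**Figure D3:**
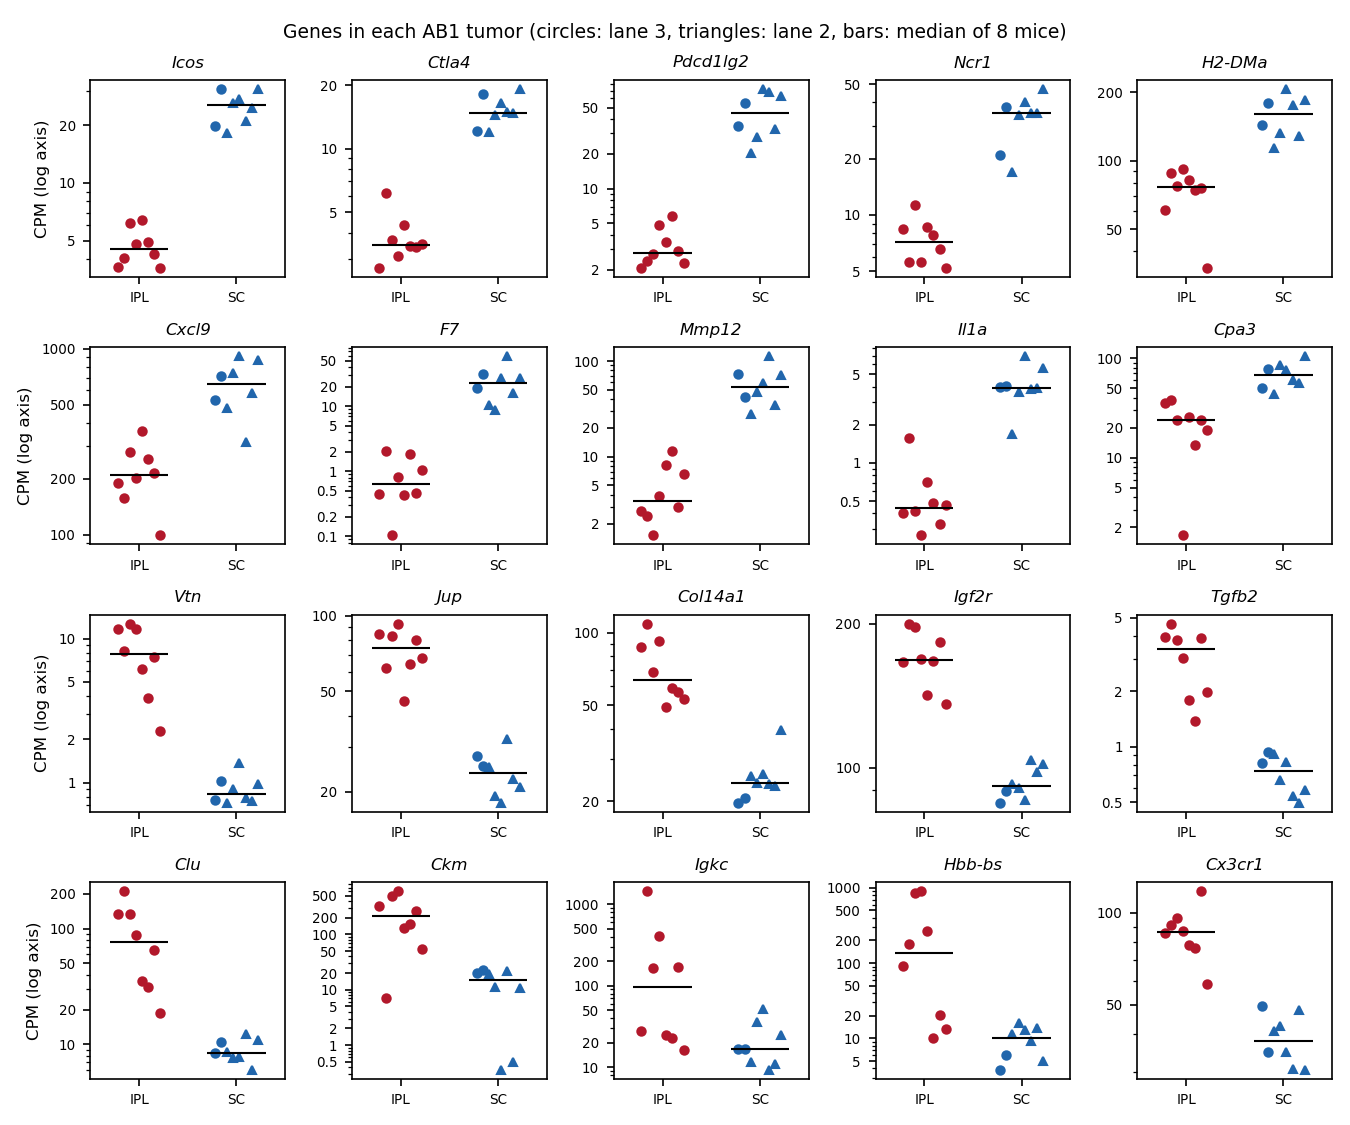
Level of 20 genes in each mouse (CPM, log axis), IPL beside SC, circles for lane 3 and triangles for lane 2, with bars at the medians. Icos lay between 3.6 and 6.4 CPM in IPL and between 18.2 and 30.9 CPM in SC mice with SC points of both lanes together, while Ckm and Igkc spread widely among IPL mice.

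Antigen presentation was lower as well. Of 27 tested MHC class I genes 26 fell, the other being Cd1d1 (-0.20, adjusted p = 0.749), with a median of -0.52 (lane 3 -0.51). B2m, the class I light chain, was at 1230 to 1800 CPM in IPL and 1940 to 2720 CPM in SC mice (medians 1620 and 2320, log2 fold change -0.57 ± 0.09, adjusted p = 0.000374, lane 3 -0.56). Tapbp, tapasin of peptide loading, was at 271 to 550 CPM in IPL and 631 to 857 CPM in SC mice (medians 472 and 728, log2 fold change -0.71 ± 0.12, adjusted p = 0.000372, lane 3 -0.81). Both lay apart in the 2 groups, and 3 of the list stayed called with lane as a covariate. Of 12 tested class II genes 10 fell and 0 rose (median -1.11, lane 3 -1.19; 5 with lane as a covariate). H2-DMa, which exchanges peptides on class II, was at 33.9 to 91.9 CPM in IPL and 114 to 207 CPM in SC mice (medians 76.8 and 160, log2 fold change -1.11 ± 0.17, adjusted p = 0.00023, lane 3 -1.19), and Cd86, a costimulatory ligand, had medians of 16 and 38.3 CPM (-1.25 ± 0.14, adjusted p = 1.88e-05, lane 3 -1.39). Ctss, the protease that trims the invariant chain, was at 430 to 671 CPM in IPL and 891 to 1660 CPM in SC mice (medians 515 and 1240, log2 fold change -1.29 ± 0.13, adjusted p = 7.91e-06, lane 3 -1.26). MHC genes share sequence between loci, which the counting could have split.

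Of 26 tested GTPases and chemokines induced by interferon-gamma, 23 fell and 0 rose (median -1.16, lane 3 -1.05). Cxcl9, which draws T cells through CXCR3, was at 99.5 to 362 CPM in IPL and 317 to 910 CPM in SC mice (medians 210 and 648, log2 fold change -1.55 ± 0.24, adjusted p = 0.000232, lane 3 -1.55). Cxcl10, of the same trio, was at 46.3 to 115 CPM in IPL and 90.3 to 236 CPM in SC mice (medians 65.3 and 170, log2 fold change -1.21 ± 0.21, adjusted p = 0.000576, lane 3 -1.16), and Cxcl11, the third, had medians of 11.1 and 41.1 CPM (-1.60 ± 0.24, adjusted p = 0.000167, lane 3 -1.58). In 6 or 7 of 8 SC mice these chemokines were above every IPL mouse. Gbp2, a GTPase that attacks vacuoles holding microbes, was at 138 to 485 CPM in IPL and 400 to 926 CPM in SC mice (medians 283 and 715, log2 fold change -1.21 ± 0.21, adjusted p = 0.000605, lane 3 -1.12). Of this list 2 were called lower with lane as a covariate and 7 with the sarcomere level. Of 51 tested genes of the type I interferon response 35 fell (median -0.63, lane 3 -0.49), and 27 without SC mouse 5. With lane as a covariate 0 were called, where 15 had an unadjusted p under 0.05. Oasl2, an antiviral synthetase-like protein, was at 104 to 207 CPM in IPL and 146 to 327 CPM in SC mice (medians 149 and 282, log2 fold change -0.84 ± 0.17, adjusted p = 0.00215, lane 3 -0.72). The 1 risen member, Ifi27, was at 104 to 174 CPM in IPL and 109 to 130 CPM in SC mice (medians 150 and 124, log2 fold change 0.26 ± 0.09, adjusted p = 0.0489, lane 3 0.26), and it lost its call without many single mice.

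The windows of 2 named interferon genes are given for the letters they share, Gbp2 at chr3:142620413-142620712 on the forward strand and Cxcl10 at chr5:92348840-92349139 on the reverse strand (RefSeq, GRCm38.p6). Capitals mark GAAANNGAA, the core of the interferon-stimulated response element, which in Gbp2 lies on the opposite strand.
Gbp2: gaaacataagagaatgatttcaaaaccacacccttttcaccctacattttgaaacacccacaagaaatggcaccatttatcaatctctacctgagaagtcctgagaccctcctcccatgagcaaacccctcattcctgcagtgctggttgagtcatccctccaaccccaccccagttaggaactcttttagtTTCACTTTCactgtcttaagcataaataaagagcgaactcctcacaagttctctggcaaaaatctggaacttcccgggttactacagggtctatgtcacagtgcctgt
Cxcl10: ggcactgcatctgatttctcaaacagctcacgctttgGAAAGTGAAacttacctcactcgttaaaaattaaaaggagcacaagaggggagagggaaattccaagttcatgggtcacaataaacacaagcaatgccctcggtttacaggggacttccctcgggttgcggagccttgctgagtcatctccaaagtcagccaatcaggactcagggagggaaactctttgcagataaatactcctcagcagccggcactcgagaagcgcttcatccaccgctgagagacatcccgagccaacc
Searched on both strands, these letters stood in 13 of 15 promoters of the interferon-gamma list (86.7%) and 24 of 36 of the type I list (66.7%), against 7.54% of all 9538. CCAAT, a box found in many class I and II promoters, stood in 14 of 20 class I promoters (70.0%), 6 of 8 class II promoters (75.0%) and 38.7% of all. A gene in more than 1 list was counted in each, a window may hold more than 1 motif, and no match was read as a site.

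Chemokines and their receptors fell in 29 of 49 tested genes and rose in 3 (median -0.94, lane 3 -0.89; 11 lower and 1 higher with lane as a covariate). Ccl2, which draws monocytes, was at 98.2 to 233 CPM in IPL and 227 to 589 CPM in SC mice (medians 137 and 493, log2 fold change -1.59 ± 0.21, adjusted p = 5.84e-05, lane 3 -1.55), and its receptor Ccr2 had medians of 163 and 334 CPM (-1.17 ± 0.23, adjusted p = 0.00159, lane 3 -1.16). Ccl8, a related monocyte chemokine, was at 85.4 to 317 CPM in IPL and 345 to 1300 CPM in SC mice (medians 186 and 714, log2 fold change -1.87 ± 0.26, adjusted p = 0.000124, lane 3 -1.89). Ccl22, which draws regulatory T cells, was at 12.5 to 24 CPM in IPL and 25.2 to 74.1 CPM in SC mice (medians 15.1 and 39.3, log2 fold change -1.39 ± 0.21, adjusted p = 0.0002, lane 3 -1.21), and Ccl11, an eotaxin, had medians of 11.8 and 40.8 CPM (-1.72 ± 0.26, adjusted p = 0.000174, lane 3 -1.66). The risen genes were Ccl21a, Ccr10 and Cx3cr1. Cx3cr1, the fractalkine receptor of monocytes and macrophages, was at 58.4 to 118 CPM in IPL and 30.5 to 49.4 CPM in SC mice (medians 86.6 and 38, log2 fold change 1.15 ± 0.13, adjusted p = 2.39e-05, lane 3 1.00), with every IPL mouse above every SC mouse.

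Of 58 tested cytokines and receptors 37 fell and 1 rose (median -0.52, lane 3 -0.58; 11 lower with lane as a covariate). Il1a, interleukin-1 alpha, was at 0.269 to 1.57 CPM in IPL and 1.69 to 6.94 CPM in SC mice (medians 0.443 and 3.94, log2 fold change -2.85 ± 0.34, adjusted p = 2.65e-05, lane 3 -2.82). Csf2, the growth factor GM-CSF, was at 0.109 to 0.481 CPM in IPL and 1.15 to 2.35 CPM in SC mice (medians 0.317 and 1.49, log2 fold change -2.30 ± 0.23, adjusted p = 7.77e-06, lane 3 -2.08). Il1rl1, the interleukin-33 receptor, was at 116 to 322 CPM in IPL and 355 to 621 CPM in SC mice (medians 196 and 562, log2 fold change -1.36 ± 0.18, adjusted p = 9.09e-05, lane 3 -1.20). All 3 were lower in every IPL mouse. Among 26 tested NF-kappaB feedback genes 20 fell and 1, Lcn2, rose (median -0.64, lane 3 -0.58; 7 lower with lane as a covariate). Vcam1, a leukocyte adhesion molecule that NF-kappaB raises, was at 64.2 to 118 CPM in IPL and 132 to 243 CPM in SC mice (medians 83.8 and 180, log2 fold change -1.09 ± 0.14, adjusted p = 4.7e-05, lane 3 -1.03).

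Myeloid genes were lower unevenly. Csf1r, the receptor on most macrophages, was at 322 to 483 CPM in IPL and 351 to 555 CPM in SC mice (medians 346 and 451, log2 fold change -0.24 ± 0.10, adjusted p = 0.107, lane 3 -0.23), and fell by 0.29 without IPL 2 (adjusted p = 0.0396) and by 0.31 without IPL 4 (adjusted p = 0.04). Of 37 tested macrophage and monocyte genes 13 fell and 2, Cx3cr1 and Fn1, rose, and there were 23 fallen genes without IPL 2 and 25 without IPL 2 and IPL 4, but 2 with lane as a covariate. Clec7a, the beta-glucan receptor dectin-1, was at 11.9 to 40.1 CPM in IPL and 99.9 to 287 CPM in SC mice (medians 26.4 and 176, log2 fold change -2.88 ± 0.25, adjusted p = 2.74e-06, lane 3 -2.81). Mgl2, a galactose lectin of macrophages and dendritic cells, was at 9.52 to 41.3 CPM in IPL and 43.2 to 279 CPM in SC mice (medians 17.5 and 116, log2 fold change -2.51 ± 0.36, adjusted p = 0.000133, lane 3 -2.62), and Nos2, inducible nitric oxide synthase, had medians of 5.22 and 23.6 CPM (-2.33 ± 0.41, adjusted p = 0.000628, lane 3 -1.49). These 3 were lower in every IPL mouse although the median of the macrophage list was only -0.41 (lane 3 -0.27). Tarm1, an activating receptor of myeloid cells, was at 0.705 to 2.87 CPM in IPL and 6.65 to 27.4 CPM in SC mice (medians 1.41 and 15, log2 fold change -3.30 ± 0.34, adjusted p = 9.61e-06, lane 3 -3.45). Dendritic cell genes fell in 17 of 27 and rose in 0 (median -0.64, lane 3 -0.58; 4 with lane as a covariate).

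Mast cell, basophil and eosinophil genes fell in 14 of 19 tested and rose in 0 (median -1.61, lane 3 -1.52). Of these 5 stayed called with lane as a covariate. Cpa3, the mast cell carboxypeptidase, was at 1.67 to 38.1 CPM in IPL and 43.7 to 104 CPM in SC mice (medians 23.9 and 68.3, log2 fold change -1.61 ± 0.37, adjusted p = 0.00491, lane 3 -1.52). Ms4a2, the beta chain of the IgE receptor, was at 0.107 to 2.34 CPM in IPL and 4.53 to 9.74 CPM in SC mice (medians 1.72 and 7.11, log2 fold change -2.15 ± 0.34, adjusted p = 0.000301, lane 3 -2.10), and Kit, the stem cell factor receptor, had medians of 15.8 and 29.6 CPM (-0.96 ± 0.13, adjusted p = 7.14e-05, lane 3 -1.07). No IPL mouse reached the lowest SC mouse in any of these 3. Neutrophil genes split: S100a8, S100a9, Ltf and Lcn2 rose and 8 of 18 tested fell, among them the chemokine gene Cxcl3 and the cytokine gene Il1a. Adding lane to the model left 0 neutrophil genes called higher and 1 lower by edgeR, where 10 had an unadjusted p under 0.05. S100a8, a calcium-binding protein of neutrophil granules and cytosol, was at 0.47 to 131 CPM in IPL and 1.67 to 3.91 CPM in SC mice (medians 13.4 and 2.14, log2 fold change 3.81 ± 0.97, adjusted p = 0.0097, lane 3 4.01), and Ltf, lactoferrin, had medians of 4.97 and 0.602 CPM (5.40 ± 1.26, adjusted p = 0.00553, lane 3 5.06). The IPL values spread over both sides of the SC range, and without IPL 3 the fold change of S100a8 was 3.03 and that of Ltf 4.53. Ly6g, a neutrophil surface marker, did not pass the filter and reached 7.59 CPM in IPL and 0.325 CPM in SC mice.

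Antibody genes rose, mainly in a few mice. Of 18 tested plasma cell and antibody genes 9 rose and Prdm1 and Irf4 fell (median 1.80, lane 3 2.03), but 3 rose without IPL 2 and IPL 4. With lane as a covariate 0 were called and 5 had an unadjusted p under 0.05. The call of Prdm1 was lost without IPL 2, IPL 7 or any of SC 5 to 8 (adjusted p = 0.0515 to 0.0609). Igkc, the kappa light chain constant region, was at 16.2 to 1450 CPM in IPL and 9.21 to 52.1 CPM in SC mice (medians 96.2 and 16.5, log2 fold change 3.69 ± 0.93, adjusted p = 0.00877, lane 3 4.05). Without IPL 2 its fold change was 2.44 (adjusted p = 0.0174), and without IPL 2 and IPL 4 it was 1.68 (adjusted p = 0.0769). Ighg1, an IgG heavy chain, was at 0.366 to 152 CPM in IPL and 0 to 1.19 CPM in SC mice (medians 1.78 and 0.268, log2 fold change 5.92 ± 1.38, adjusted p = 0.00548, lane 3 4.60), and without IPL 2 the fold change was 4.37. Igkv10-96, a kappa variable segment, was at 0.418 to 78.3 CPM in IPL and 0.0517 to 0.593 CPM in SC mice (medians 3.65 and 0.141, log2 fold change 6.56 ± 1.30, adjusted p = 0.00183, lane 3 7.28), and its fold change was 5.96 without IPL 2 and 5.93 without IPL 7. Pou2af1, a B cell coactivator, was at 0.522 to 28.1 CPM in IPL and 0.103 to 0.89 CPM in SC mice (medians 2.32 and 0.451, log2 fold change 3.93 ± 0.80, adjusted p = 0.00186, lane 3 5.33), and 3.12 without IPL 2. Irf4, a factor that plasma cells, T cells and dendritic cells use, was at 3.03 to 15.6 CPM in IPL and 6.83 to 36.9 CPM in SC mice (medians 5.2 and 14.8, log2 fold change -1.37 ± 0.36, adjusted p = 0.011, lane 3 -1.19). Variable and constant segments are near copies of each other, and the reference genome is of another strain, so single segments are uncertain.

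Of 17 tested B cell genes 6 rose and 3, Cd22, Cd40 and Tnfrsf13b, fell, with 3 risen without IPL 2, and likewise without IPL 2 and IPL 4. Cd79a, of the B cell receptor, was at 11.1 to 31.7 CPM in IPL and 8.24 to 12 CPM in SC mice (medians 14.4 and 9.4, log2 fold change 0.84 ± 0.20, adjusted p = 0.00478, lane 3 0.52). Globins, the mark of red blood cells, rose too. Hbb-bs, a beta globin, was at 9.97 to 906 CPM in IPL and 3.8 to 15.8 CPM in SC mice (medians 135 and 10.2, log2 fold change 4.91 ± 0.93, adjusted p = 0.00134, lane 3 5.83), and Hba-a1, an alpha globin, had medians of 142 and 15.5 CPM (4.48 ± 0.84, adjusted p = 0.00126, lane 3 4.74). Globin copies share reads, so Hba-a2 and Hbb-bt hold no separate evidence. Tfrc, the transferrin receptor that dividing cells use for iron, went the other way and was at 47.1 to 219 CPM in IPL and 184 to 279 CPM in SC mice (medians 119 and 250, log2 fold change -1.01 ± 0.24, adjusted p = 0.00507, lane 3 -1.14).

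Clotting and complement genes held the largest fall over genes that averaged 2 CPM or more. F7, coagulation factor VII, was at 0.104 to 2.06 CPM in IPL and 8.79 to 58.8 CPM in SC mice (medians 0.638 and 23.2, log2 fold change -4.79 ± 0.50, adjusted p = 1.06e-05, lane 3 -4.86). F10, factor X that factor VII activates, was at 1.27 to 7.52 CPM in IPL and 17.5 to 64.7 CPM in SC mice (medians 3.37 and 34.5, log2 fold change -3.27 ± 0.38, adjusted p = 2.64e-05, lane 3 -3.26). Every SC mouse was above every IPL mouse for both, and both stayed called with lane as a covariate (adjusted p = 0.000948 and 0.00321). Clu, clusterin that binds complement complexes, was at 18.7 to 211 CPM in IPL and 6.02 to 12.2 CPM in SC mice (medians 76.8 and 8.51, log2 fold change 3.31 ± 0.43, adjusted p = 6.5e-05, lane 3 3.19), and Cd59a, which blocks the membrane attack complex, had medians of 9.62 and 4.72 CPM (1.02 ± 0.12, adjusted p = 3.84e-05, lane 3 1.15). Thbd, thrombomodulin of vessel and mesothelial surfaces, was at 26 to 74.4 CPM in IPL and 18.6 to 25 CPM in SC mice (medians 47.2 and 19.8, log2 fold change 1.14 ± 0.17, adjusted p = 0.000199, lane 3 1.16). These inhibitors lay higher in every IPL mouse. Over the 38 tested members 6 rose and 12 fell (median -0.11, lane 3 -0.11; 4 higher and 3 lower with lane as a covariate), and among the fallen was C1s1 (-0.93), a protease that starts the classical complement pathway. Kng2, a kininogen, was at 1.25 to 11.3 CPM in IPL and 0.12 to 0.415 CPM in SC mice (medians 5.74 and 0.343, log2 fold change 4.28 ± 0.43, adjusted p = 9.1e-06, lane 3 4.57).

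Metabolic lists had small medians, but several had shares of calls above those over all genes. Of the fatty acid oxidation genes 41.4% rose, and of the glycolysis genes 33.3% fell. Of 24 tested glycolysis genes 8 fell and 1, Ldhb, rose (median -0.25, lane 3 -0.22), with 2 lower once lane was a covariate and 16 lower by limma-voom. Aldoc, an aldolase, was at 3.02 to 7.15 CPM in IPL and 10.2 to 19 CPM in SC mice (medians 4.58 and 12.8, log2 fold change -1.51 ± 0.18, adjusted p = 3.42e-05, lane 3 -1.40), and Pfkp, a phosphofructokinase, had medians of 107 and 174 CPM (-0.74 ± 0.10, adjusted p = 8.24e-05, lane 3 -0.62). Slc2a1, the glucose transporter GLUT1, was at 31.3 to 103 CPM in IPL and 86.5 to 113 CPM in SC mice (medians 70.1 and 106, log2 fold change -0.59 ± 0.16, adjusted p = 0.0138, lane 3 -0.62). Of 29 tested hypoxia genes 5 fell and 1, P4ha2, rose, with 9 fallen without IPL 2 and 11 without IPL 2 and IPL 4. Limma-voom called 14 hypoxia genes lower. Of 29 tested fatty acid oxidation genes 12 rose and 0 fell (median 0.22, lane 3 0.18), and with lane as a covariate 0 were called and 11 had an unadjusted p under 0.05. Acadvl, the dehydrogenase of very long chains, was at 35.2 to 59.1 CPM in IPL and 31.4 to 33.5 CPM in SC mice (medians 46.7 and 32.8, log2 fold change 0.50 ± 0.10, adjusted p = 0.00166, lane 3 0.49). Gpam, which starts triglyceride synthesis, was at 26.2 to 50.4 CPM in IPL and 17.7 to 25.5 CPM in SC mice (medians 39 and 19.7, log2 fold change 0.92 ± 0.12, adjusted p = 8.75e-05, lane 3 0.83). Of 69 tested nuclear genes of oxidative phosphorylation 4 rose and 0 fell, with 2 risen without SC 4 and 14 without IPL 5. Of 31 genes of the citrate cycle 7 rose and 0 fell.

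Of 32 tested genes of amino acid synthesis and the integrated stress response 12 fell and 0 rose (median -0.28, lane 3 -0.22). With lane as a covariate 0 were called and 8 had an unadjusted p under 0.05. Its member Cth, which makes cysteine, was at 2.49 to 4.16 CPM in IPL and 4.78 to 21.4 CPM in SC mice (medians 2.87 and 8.74, log2 fold change -1.71 ± 0.25, adjusted p = 0.000167, lane 3 -1.05). In no list were Slc7a2 and Ido2, which were named for the size of their change. Slc7a2, a carrier of arginine and other cationic amino acids, was at 5.2 to 14.3 CPM in IPL and 31.2 to 134 CPM in SC mice (medians 8.04 and 60.8, log2 fold change -3.04 ± 0.31, adjusted p = 1.03e-05, lane 3 -2.86). Ido2, a tryptophan-degrading enzyme, was at 0.433 to 4.48 CPM in IPL and 9.69 to 19 CPM in SC mice (medians 1.48 and 16.5, log2 fold change -3.02 ± 0.31, adjusted p = 1.06e-05, lane 3 -3.02). All 3 were lower in every IPL mouse than in every SC mouse. Of 29 tested eicosanoid genes 9 fell and 0 rose, with 3 lower once lane was added. Tbxas1, thromboxane synthase, was at 28.6 to 54.2 CPM in IPL and 49.4 to 94 CPM in SC mice (medians 36.2 and 71.4, log2 fold change -0.97 ± 0.15, adjusted p = 0.000214, lane 3 -0.94). Of 22 tested cholesterol genes 4 fell and 0 rose (median -0.36, lane 3 -0.59), and leaving out single mice gave 2 to 15, the highest without IPL 8. Limma-voom called 19 of them lower, against 16.6% of all genes by that tool. With lane as a covariate edgeR called 0 cholesterol genes, where 14 had an unadjusted p under 0.05. Of 36 tested glutathione and NRF2 genes 10 rose and 3 fell. Gpx3, the plasma glutathione peroxidase, was at 78.1 to 381 CPM in IPL and 32.8 to 80.3 CPM in SC mice (medians 252 and 52.6, log2 fold change 2.07 ± 0.32, adjusted p = 0.000223, lane 3 2.02), and Gsta2, a glutathione transferase, had medians of 0.299 and 3.63 CPM (-3.84 ± 0.59, adjusted p = 0.000229, lane 3 -4.04).

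Genes of growth machinery were seldom called by edgeR and more often by limma-voom. Of 50 tested replication genes Rfc3 and Dna2 fell and 0 rose (median -0.08, lane 3 -0.15). Leaving out single mice gave 2 to 7 fallen replication genes, the highest without IPL 4, and limma-voom called 11 lower, against 16.6% of all genes by that tool. Of 60 tested mitosis genes 1, Cenph, fell (median -0.08, lane 3 -0.18), and 5 by limma-voom. Of 69 cytosolic ribosomal proteins 0 were called by edgeR's quasi-likelihood test (median 0.02, lane 3 0.03), and 1 had an unadjusted p under 0.05, with 0 called by DESeq2 and 7 by limma-voom. Without IPL 2 and IPL 4 there were 3 fallen ribosomal protein genes. Of 41 ribosome biogenesis genes 0 were called (median -0.06, lane 3 -0.17), and 1 had an unadjusted p under 0.05, with 0 called by DESeq2 and 3 by limma-voom. Of 30 proteasome genes 1, Pomp, fell, and of 57 spliceosome genes Prpf19 rose and Mbnl1 fell. By edgeR with all 16 mice these shares lie below the 12.3% and 10.7% over all genes. Of 30 heat shock genes 11 rose and 0 fell (median 0.20, lane 3 -0.06), among them the small heat shock genes Hspb1, Hspb8 and Cryab, which muscle expresses strongly. Hspb8 was at 76.6 to 116 CPM in IPL and 49 to 68.3 CPM in SC mice (medians 95.5 and 57, log2 fold change 0.70 ± 0.09, adjusted p = 5.19e-05, lane 3 0.52).

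Wnt, TGF-beta, Notch and YAP lists held more rises than falls. Of 28 tested Wnt genes 12 rose and 3 fell (median 0.35, lane 3 0.35). With lane as a covariate edgeR called 0 Wnt genes, where 12 had an unadjusted p under 0.05. Sfrp1, a secreted Wnt inhibitor, was at 3.97 to 24.2 CPM in IPL and 1.49 to 3.89 CPM in SC mice (medians 13.1 and 3.28, log2 fold change 2.07 ± 0.32, adjusted p = 0.000247, lane 3 2.18). Of 41 tested TGF-beta and BMP genes 11 rose and 1 fell, with 4 fallen without IPL 2 and IPL 4 and 1 risen with lane as a covariate. Tgfb2, a TGF-beta ligand, was at 1.38 to 4.65 CPM in IPL and 0.497 to 0.93 CPM in SC mice (medians 3.4 and 0.736, log2 fold change 2.07 ± 0.26, adjusted p = 3.92e-05, lane 3 1.76). Of 26 tested Notch and Hedgehog genes 9 rose and 3 fell, with 1 risen once lane was added. Gli2, a Hedgehog transcription factor, was at 5.12 to 17.3 CPM in IPL and 2.72 to 4.73 CPM in SC mice (medians 9.66 and 4.16, log2 fold change 1.28 ± 0.21, adjusted p = 0.000322, lane 3 1.24). Of 25 tested YAP and TEAD genes 12 rose and Axl and Nt5e fell (median 0.23, lane 3 0.16; 3 higher with lane as a covariate). Amotl1, an angiomotin, was at 164 to 196 CPM in IPL and 123 to 147 CPM in SC mice (medians 178 and 131, log2 fold change 0.43 ± 0.06, adjusted p = 9.09e-05, lane 3 0.36), and Axl, a receptor kinase, had medians of 534 and 716 CPM (-0.38 ± 0.07, adjusted p = 0.00113, lane 3 -0.46). Of 51 growth factor and receptor kinase genes 7 rose (13.7%) and 6 fell (11.8%), close to the shares over all genes. Igf2, insulin-like growth factor 2, was at 1.41 to 10 CPM in IPL and 0.363 to 1.38 CPM in SC mice (medians 3.99 and 0.772, log2 fold change 2.44 ± 0.39, adjusted p = 0.000317, lane 3 2.28), and Igf2r, which clears it, had medians of 168 and 91.7 CPM (0.86 ± 0.08, adjusted p = 7.52e-06, lane 3 0.92). Of 19 clock genes 5 rose and Nfil3 and Bhlhe40 fell. Hsd11b1, which makes active glucocorticoid, was at 4.02 to 11.1 CPM in IPL and 13.1 to 64.6 CPM in SC mice (medians 7.97 and 33.8, log2 fold change -2.09 ± 0.30, adjusted p = 0.000135, lane 3 -1.91).

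Some of the largest changes fell in no list that moved as a whole. Crabp1, a carrier of retinoic acid, was at 0.047 to 0.484 CPM in IPL and 0.83 to 7.93 CPM in SC mice (medians 0.251 and 4.54, log2 fold change -4.22 ± 0.45, adjusted p = 1.32e-05, lane 3 -4.72). Reg3g, a secreted antimicrobial lectin, was at 0.104 to 0.657 CPM in IPL and 1.99 to 9.72 CPM in SC mice (medians 0.264 and 4.49, log2 fold change -3.83 ± 0.37, adjusted p = 7.77e-06, lane 3 -4.52), and Prokr2, a prokineticin receptor, had medians of 0.365 and 5.67 CPM (-3.67 ± 0.46, adjusted p = 4.15e-05, lane 3 -3.70). All 3 were lower in every IPL mouse than in every SC mouse. Car4, a membrane carbonic anhydrase, was at 0.728 to 3.96 CPM in IPL and 5.56 to 37.1 CPM in SC mice (medians 1.81 and 19.8, log2 fold change -3.20 ± 0.45, adjusted p = 0.000115, lane 3 -3.21), and Hcar2, the niacin receptor, had medians of 4.05 and 22.6 CPM (-2.39 ± 0.28, adjusted p = 2.43e-05, lane 3 -2.21). Among the rises, Myh14, a nonmuscle myosin heavy chain, was at 4.49 to 19.4 CPM in IPL and 0.497 to 1.3 CPM in SC mice (medians 11.1 and 0.978, log2 fold change 3.55 ± 0.31, adjusted p = 3.05e-06, lane 3 3.61), Cplx2, a complexin of vesicle release, had medians of 31.3 and 18 CPM (0.78 ± 0.06, adjusted p = 9.07e-07, lane 3 0.73), and Dio3, which inactivates thyroid hormone, had medians of 4.85 and 0.875 CPM (2.37 ± 0.23, adjusted p = 7.77e-06, lane 3 1.94). No IPL and SC mouse overlapped in these 3. Abca8a, a membrane transporter, was at 7.73 to 67.4 CPM in IPL and 0.724 to 2.79 CPM in SC mice (medians 42.8 and 1.26, log2 fold change 4.58 ± 0.46, adjusted p = 9.18e-06, lane 3 5.19). Gm5879, a predicted gene, was at 0.437 to 1.34 CPM in IPL and 0.584 to 67 CPM in SC mice (medians 0.79 and 1.17, log2 fold change -3.45 ± 1.07, adjusted p = 0.0286, lane 3 -0.01), and without SC mouse 6 its fold change was -0.30 (adjusted p = 0.394).

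The remaining lists differed in their share of calls. Smooth muscle and pericyte genes rose in 6 of 13 tested (46.2%) and fell in 0, with 3 called higher once the sarcomere level was a covariate. Replication-dependent histones rose in 5 of 20 (3 without IPL 4, 8 without IPL 5) and fell in 0. Lysosome genes rose in 3 and fell in 8 of 39, with 4 fallen without IPL 1 and 14 fallen without IPL 2 and IPL 4. Immediate early genes rose in 3 and fell in 7 of 31, with 13 fallen without that pair. Ubiquitin ligase adaptors rose in 11 (33.3%) and fell in 1 of 33 (median 0.07), with 2 called higher once the sarcomere level was a covariate. Chromatin regulators rose in 9 and fell in 1 of 67, and actin genes rose in 9 and fell in 1 of 54. There were 4 fallen chromatin genes without IPL 4, 7 fallen actin genes without IPL 2, and 11 without IPL 2 and IPL 4. Hox genes, which mark body position, rose in 2 and fell in 1 of 30, and mesothelioma suppressor and lineage genes rose in 4 and fell in 1 of 15. Factors that drive the change from epithelial to mesenchymal state rose in 2 and fell in 0 of 12. Once lane was added, none of these lists had more than 2 called genes.

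Grouped by the stem of the gene symbol, with at least 15 tested genes to a stem, the calls followed the same lines. Of 18 Ifi genes 16 fell (88.9%) and 1 rose, and of 43 Il genes 28 fell (65.1%) and 0 rose. Of 34 Col genes 21 rose (61.8%) and 0 fell. Of 18 Pcdhb genes, the clustered protocadherins of cell adhesion, 10 rose (55.6%) and 0 fell, although they are near copies that share reads. Of 25 Klhl genes, adaptors of ubiquitin ligases, 11 rose and 0 fell. Stems with hardly a call included Rbm, with 1 called of 34, and Zbtb, with 2 called of 37. The named lists held 2254 of the tested genes and 815 of the called ones, so 2559 called genes lay outside every list.

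**Figure D4:**
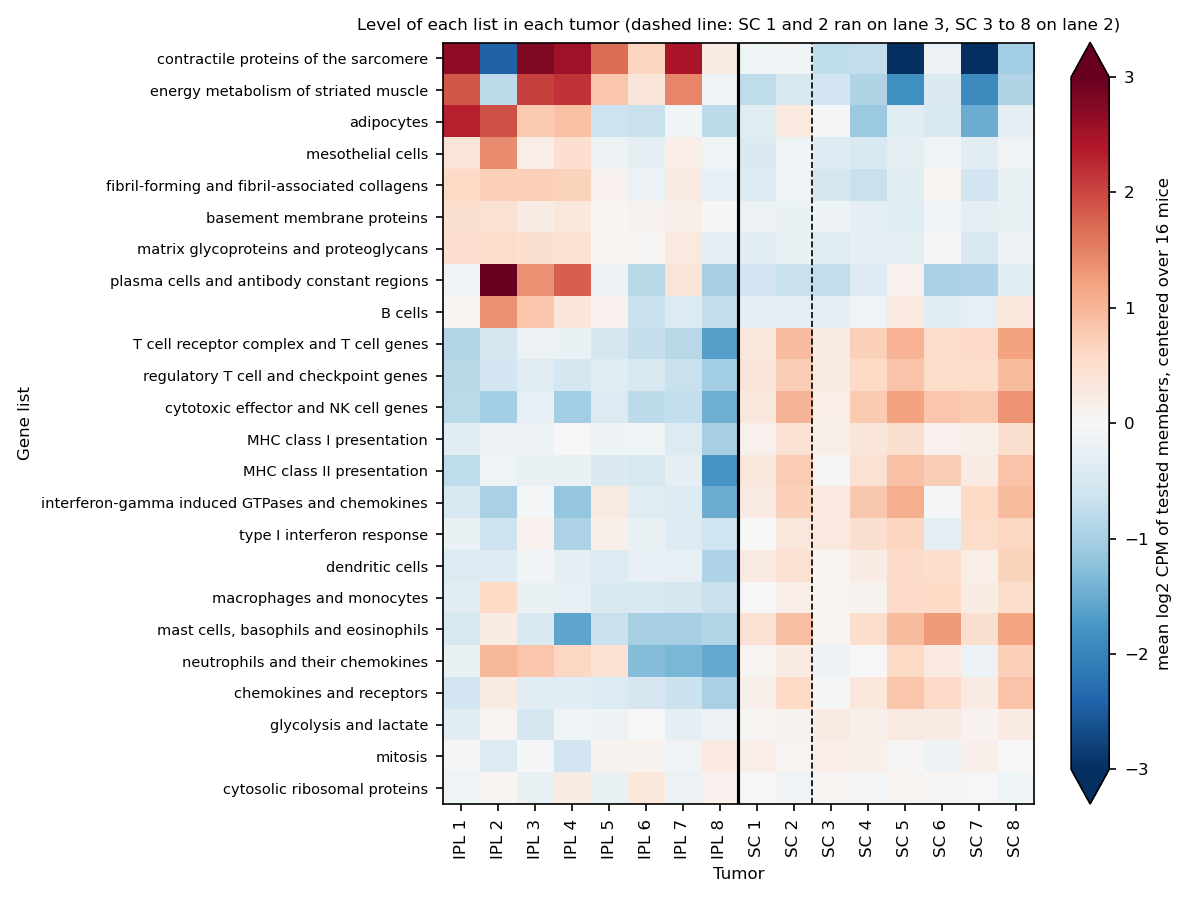
Level of 24 gene lists (rows) in each of 16 mice (columns), as the mean log2 CPM of the members centered on the 16-mouse mean and colored up to 3 units either way. The T cell list lay between -1.65 and -0.18 in IPL and between 0.21 and 1.22 in SC mice, whereas the sarcomere list of 1 IPL mouse lay within the SC range.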

How the data were processed

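Whole AB1 tumors of 16 mice, 8 IPL and 8 SC, were profiled by poly(A) RNA sequencing in single-end reads of 50 bases. The authors mapped the reads with HISAT2 2.0.4 and deposited raw, unnormalized counts per gene, and they used DESeq2 for their own tests. The counts were tested here in R 4.3.3 with edgeR 4.0.16 (filterByExpr, TMM factors, robust quasi-likelihood test, Benjamini-Hochberg adjustment over all 14645 genes that passed, call at an adjusted p under 0.05). CPM are counts scaled to library size and TMM factors. Lane came from the column names. P-values measure the spread between mice.

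DESeq2 1.42.0, limma 3.58.1 (voom with quality weights), other scalings and filters, lane and sarcomere level as covariates, a replicate block and single mice left out were the alternatives, and the fit without IPL 2 and IPL 4 was chosen after seeing the data. The fits were tested on simulated data. The gene lists and the choice of groups were made with earlier results of these data known. Of 3274 list places 2832 had a row in the counts. The other members are not analysed here, among them all 13 genes of mitochondrial DNA.

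Genes were named by a rule: up to 4 risen and 4 fallen members of each list by smallest adjusted p, the 20 largest rises and falls at a mean of at least 2 CPM, the 10 smallest adjusted p in each direction, and defining markers of other tissues. Fewer are printed, and members that went against their list are named beside it, some after their values were seen. Symbols were matched to GENCODE M21, and promoter windows came from RefSeq (GRCm38.p6). Levels of a list are means of log2 CPM (2 counts added) centered over the 16 mice. Intervals of counting error do not cover the spread between mice. Some items are not reported here.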

Additional observations from a re-analysis of the deposited data

Results flagged for a closer look

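Of 404 pairs of a gene or list and a group of 8 mice, 34 held 1 mouse whose gap to its neighbor passed Dixon's 95% limit for 8 values, and chance alone flags about 1 group in 20. Mouse IPL 2 gave 14 of them. It was lowest of its group in the muscle genes Actn3 (2.16 CPM), Des (22.7 CPM), Tnnt2 (0.162 CPM), Myog (0.162 CPM) and Trim63 (0.595 CPM). It was highest in Wt1 (11.1 CPM), Upk3b (31.9 CPM), Krt14 (0.973 CPM), Lamc1 (715 CPM) and Il1a (1.57 CPM), and in the levels of the mesothelial (1.41), keratinocyte (0.549) and macrophage (0.596) lists, in log2 units from the mean of the 16 mice. Its heat shock level was the lowest of its group (-0.293).

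Mouse IPL 8 gave 7, all on the low side. It held Ccl8 at 85.4 CPM, Tapbp at 271 CPM and H2-DMa at 33.9 CPM, and list levels of -1.65 for T cells, -0.996 for MHC class I, -1.78 for MHC class II and -0.916 for dendritic cells. Mouse IPL 4 was lowest in Cpa3 (1.67 CPM) and Ccr2 (40.9 CPM). The other IPL mice set apart were IPL 6, with Cdh1 at 16.2 CPM, and IPL 5, with Scgb1a1 at 1.2 CPM.

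Among SC mice, SC 6 held Gm5879 at 67 CPM and Scgb1a1 at 0.481 CPM, and SC 8 held Col14a1 at 39.6 CPM. SC 7 was lowest in Car3 (1.37 CPM) and Sfrp1 (1.49 CPM). SC 3 was highest in Krt5 (0.665 CPM, 11 reads), Krt14 (0.302 CPM, 5 reads) and the level of the YAP and TEAD list (0.03). SC 4 was flagged for Upk3b (0.0598 CPM) on 1 read, so that flag carries no weight.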

How the results depend on the processing

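With all mice 3374 genes were called, and refits without single mice called 2877 to 3652, with 1531 to 2011 risen (1538 without IPL 4, against 1803) and 1346 to 1943 fallen genes. Other scalings, DESeq2 and the other filters gave 2833 to 4536 calls. Limma-voom called 2425 genes lower. Rises made up 53.4% of the calls, 44.2% without IPL 4 and 44.9% without IPL 2 and IPL 4 (1688 higher, 2069 lower). Lane as a covariate left 386 calls (107 higher, 279 lower), lane 3 alone 169 (10 and 159), and the sarcomere level as a covariate 921 (415 and 506). Lane 3 alone holds 2 SC mice, and whether the fewer calls there came from fewer samples or from lane was not tested. An adjusted p under 0.01 left 1903 calls (993 and 910), and asking for a log2 change of 1 or more in size left 988 (480 and 508). Replicate numbers did not pair the mice: same-numbered mice had residual correlations of -0.315 to 0.0118, and 0 of 8 correlated best with their own number. The replicate block gave 2263 calls, 1080 of them higher. Values that changed sign included Ckmt2 (-0.0888), Acta1 (-0.156) and the medians of the sarcomere (-0.154), heart (-0.244) and hypoxia (0.141) lists with the sarcomere level as a covariate, which is built from the first, and Gm5879 (0.045) with lane as a covariate. Wt1, which was not called, went from 0.56 to -1.06 without IPL 2, the keratinocyte median to -0.0839 without IPL 2 and IPL 4 and the heat shock median to -0.06 in lane 3. Other medians near 0 changed sign as well. Of the 142 named genes with a test, 72 kept their side of the threshold with lane as a covariate, 53 in lane 3 alone, 102 with the sarcomere level, 132 with the block and 135 without IPL 2 and IPL 4. Depth limits genes near 3 reads, or 0.141 to 0.195 CPM.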
